A study of Mus musculus with 10 samples.

Results

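The transcription factors that specify mouse primordial germ cells (PGCs) and their protein partners were followed here as 6 genes. These were Prdm1, Prdm14, Tfap2c, Cbfa2t2, Prmt5 and Sox15. They were chosen by name for their known roles in the pathway, with earlier results of these data known. All 6 were among the 36066 genes of the expression table, and all 6 passed the filter on low values with 27259 genes in all. The table held 10 RNA-seq libraries in 5 groups of 2 replicates. ESCs were female mouse embryonic stem cell lines from fertilized blastocysts and pESCs were lines from parthenogenetic blastocysts, which arise from activated oocytes and carry only maternal genomes. ESC-PGCLCs and pESC-PGCLCs were PGC-like cells induced from them, through 2 days as epiblast-like cells and 4 days in a medium holding LIF (1000 IU), EGF at 50 ng/ml, SCF at 100 ng/ml and BMP4 at 500 ng/ml, and sorted for integrin β3 and SSEA1. The last group was PGCs from female embryonic gonads, whose embryonic day the sample labels did not give. All lines carried an Actin-GFP transgene, the stem cells grew on mouse fibroblast feeders, and the labels did not say whether replicates were separate lines or cultures, so p-values measure only the spread between these libraries. The data address whether germ cells made from parthenogenetic stem cells express the specification genes as those from fertilized embryos and as embryonic PGCs do.

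In the mouse embryo, BMP and WNT signals from neighbouring tissue induce a few epiblast cells to become PGCs. PRDM1 (BLIMP1) represses the somatic programme in these cells, PRDM14 restores pluripotency genes and represses DNA methylation, and TFAP2C (AP-2γ) acts with and downstream of PRDM1. CBFA2T2 is an ETO-family corepressor that binds PRDM14, PRMT5 is an arginine methyltransferase that associates with PRDM1 in germ cells, and SOX15 is an HMG-box factor of the SOX family present in pluripotent cells and PGCs.

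The labelled cell types were compared with their markers first, and several values went against the labels of the PGCLC libraries. Ddx4, a germ cell RNA helicase, stood between 186 and 303 TPM (transcript abundance scaled to a fixed total per library) in the 6 PGCLC and PGC libraries and between 1.51 and 3.35 TPM in the 4 stem cell libraries. Dazl, a germ cell RNA-binding protein, stood at 1084 to 2095 TPM against 12.1 to 18.7 TPM. Pou5f1, the pluripotency factor that PGCs are known to keep, was low in the germ cell libraries, at 0.374 and 0 TPM in ESC-PGCLCs, 2.98 and 2.88 TPM in pESC-PGCLCs, and 3.14 and 1.63 TPM in PGCs, against 7.49 to 23.5 TPM in stem cells. The stem cell values of Pou5f1 were themselves low beside those of Nanog, at 403 to 674 TPM. The paper describes Oct4 (Pou5f1) as highly expressed in these cells. Whether Pou5f1 shares sequence with other genes was not checked. In the test described below, 5 of 6 pluripotency markers fell and 1 rose in ESC-PGCLCs against ESCs. In pESC-PGCLCs against pESCs, 4 fell and 0 rose. The marker that rose was Sox2, at 97.3 and 110 TPM in ESC-PGCLCs against 32.7 and 44.6 TPM in ESCs. Summed over 6 markers of gonadal somatic cells, levels were 15.6 to 18.9 TPM in ESC-PGCLCs, 24.9 to 30.4 TPM in pESC-PGCLCs, 50.2 to 56.6 TPM in PGCs and at most 1.28 TPM in stem cells, where up to 4 of the 6 were at 0. Summed over 5 blood markers, levels were 137 to 151, 956 to 1098 and 590 to 737 TPM in the same germ cell groups and at most 2.31 TPM in stem cells. The 7 fibroblast markers summed to 5.58 to 11.2 TPM in germ cell libraries and at most 0.786 TPM in stem cells. The 3 endothelial markers summed to between 1.02 and 3.18 TPM in all libraries, but moved in opposite directions. Cdh5 was 0 in stem cells and 0.329 to 1.08 TPM in germ cell libraries, and Kdr at most 0.0383 against 0.489 to 1.56 TPM. Tek was 2.25 to 3.14 TPM in stem cells and 0.178 to 0.947 TPM in germ cell libraries. DDX4 and DAZL are known as genes of late, gonadal PGCs, while cells sorted after 4 days of induction in culture have met no gonad. Given the high Ddx4 and Dazl and the gonadal and blood transcripts, the PGCLC labels are taken with doubt here. The source of these transcripts was not tested, and a wrong label cannot be told apart from other cells in the cultures. Low Pou5f1 was shared by the PGC libraries, but both ESC-PGCLC libraries, with 4 and 0 reads, stood below the PGC libraries, with 45 and 33. What this difference means for the PGCLC labels was not tested. PGCLC below means the libraries labelled so, and every comparison that uses them carries this doubt, whereas pESC against ESC compares none of them. The part of other cell types in the results was not tested, and in these bulk libraries fewer cells of a type and less RNA per cell cannot be told apart. The depth recovered from the table ranged from 6779837 reads, in an ESC-PGCLC library, to 18572894 reads, in an ESC library.

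The 6 genes lie at separate loci of the mm10 genome (GRCm38 coordinates of GENCODE M21). Prdm1 is at chr10:44437177-44528501 on the minus strand, Prdm14 at chr1:13113457-13127163 on the minus strand, and Tfap2c at chr2:172549593-172558622 on the plus strand. Cbfa2t2 is at chr2:154436481-154539356 on the plus strand, Prmt5 at chr14:54507187-54517525 on the minus strand, and Sox15 at chr11:69655314-69656727 on the plus strand. Of the exon sequence of Cbfa2t2, 9.22% in stretches of 31 bases also occurs in other genes, led by its pseudogene Cbfa2t2-ps1, so its counts carry that uncertainty. The share was at most 0.947% for the other 5 genes. Of the exon bases of Sox15, 3.60% overlap the antisense gene Mpdu1, and the counting was not stated to use strand.

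The promoter windows of Prdm1, Prmt5 and Sox15 are shown because these genes changed most between groups. Each runs from 250 bases before to 50 bases after a RefSeq start (GRCm38.p6), 5′ to 3′ along the gene, and capitals mark matches on either strand to 5 letter patterns: GCCNNNGGC for AP-2 factors, AGNGAAAG for PRDM1, GGTCTCTAA for PRDM14, AACAAT for SOX factors and CCAAT for the CCAAT box. RefSeq windows were matched for 4 of the 6 genes, Cbfa2t2 being the other. The Prdm1 window is chr10:44458699-44458998 (minus strand, 69753 bases into the gene from its annotated 5′ end), the Prmt5 window chr14:54517421-54517720 (minus strand) and the Sox15 window chr11:69654787-69655086 (plus strand).
Prdm1: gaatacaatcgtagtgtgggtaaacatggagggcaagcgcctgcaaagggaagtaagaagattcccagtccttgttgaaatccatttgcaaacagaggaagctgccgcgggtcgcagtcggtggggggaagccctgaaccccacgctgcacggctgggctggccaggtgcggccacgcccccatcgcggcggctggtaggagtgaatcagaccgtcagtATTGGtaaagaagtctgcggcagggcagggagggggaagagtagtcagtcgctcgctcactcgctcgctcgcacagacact
Prmt5: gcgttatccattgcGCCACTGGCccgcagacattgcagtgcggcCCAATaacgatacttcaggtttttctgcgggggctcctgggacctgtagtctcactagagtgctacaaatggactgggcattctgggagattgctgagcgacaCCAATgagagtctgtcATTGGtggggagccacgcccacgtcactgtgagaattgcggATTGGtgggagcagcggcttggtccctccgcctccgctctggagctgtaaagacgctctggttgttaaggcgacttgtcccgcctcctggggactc
Sox15: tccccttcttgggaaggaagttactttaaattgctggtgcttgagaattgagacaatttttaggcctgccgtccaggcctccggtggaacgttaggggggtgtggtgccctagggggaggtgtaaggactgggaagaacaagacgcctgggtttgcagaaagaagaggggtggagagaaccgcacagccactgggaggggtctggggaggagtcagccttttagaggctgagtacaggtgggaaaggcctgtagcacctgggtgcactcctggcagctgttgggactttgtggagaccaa
The Prmt5 window held 4 CCAAT matches and 1 AP-2 match at position -236 from the start, and the Prdm1 window held 1 CCAAT match at -31. The Sox15 and Cbfa2t2 windows held none of the 5 patterns. The RefSeq start used for Sox15 lies 277 bases before the start of the gene given above, so the whole Sox15 window lies outside that gene. The start used for Prmt5 lies 55 bases into the gene. Among 32851 promoter windows of this length, 37.4% held CCAAT, 16.6% the AP-2 pattern, 10.7% the SOX pattern, 8.63% the PRDM1 pattern and 0.256% the PRDM14 pattern. A match is a run of letters and not a shown binding site.

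Prdm1, the repressor that starts the germ cell programme, had 1.97 and 1.70 TPM in ESCs and 2.75 and 2.21 TPM in pESCs. It had 10.9 and 10.4 TPM in ESC-PGCLCs, 8.71 and 10.4 TPM in pESC-PGCLCs, and 13.9 and 12.0 TPM in PGCs. Every germ cell library stood above every stem cell library. The order of group means was PGC, ESC-PGCLC, pESC-PGCLC, pESC and ESC, and the libraries of neighbouring groups did not overlap, although the 2 PGCLC groups came within rounding of each other. Between neighbours, only pESC-PGCLC and pESC differed past the test below.

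Prdm14, the second PR-domain factor, kept close to 1 level. It had 17.2 and 18.1 TPM in ESCs, 10.9 and 15.0 TPM in pESCs, 16.7 and 18.0 TPM in ESC-PGCLCs, 15.3 and 13.8 TPM in pESC-PGCLCs, and 19.9 and 21.7 TPM in PGCs. The libraries of ESCs overlapped those of ESC-PGCLCs, and those of pESCs overlapped those of pESC-PGCLCs. The group means fell between 13.0 ± 2.94 TPM in pESCs and 20.8 ± 1.27 TPM in PGCs (SD, n = 2).

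Tfap2c had 4.51 and 4.60 TPM in ESCs, 3.56 and 4.55 TPM in pESCs, 11.3 and 11.2 TPM in ESC-PGCLCs, 7.44 and 8.90 TPM in pESC-PGCLCs, and 17.2 and 11.3 TPM in PGCs. The germ cell libraries all stood above the stem cell libraries. PGCs overlapped ESC-PGCLCs, and ESCs overlapped pESCs, while the pESC-PGCLC libraries lay between the other 2 germ cell groups and the stem cells. The PGC replicates were the most unlike of any group for this gene, at 14.2 ± 4.14 TPM (SD, n = 2).

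Cbfa2t2, the corepressor partner of PRDM14, had 7.97 and 7.84 TPM in ESCs, 5.31 and 7.00 TPM in pESCs, 10.6 and 11.6 TPM in ESC-PGCLCs, 8.80 and 11.5 TPM in pESC-PGCLCs, and 17.1 and 13.0 TPM in PGCs. Its order was that of Tfap2c, with ESC-PGCLCs and pESC-PGCLCs overlapping and no germ cell library below a stem cell library.

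Prmt5, the methyltransferase, followed another order. It had 41.9 and 36.8 TPM in ESCs, 15.7 and 20.5 TPM in pESCs, 4.46 and 5.84 TPM in ESC-PGCLCs, 14.7 and 14.3 TPM in pESC-PGCLCs, and 19.6 and 15.6 TPM in PGCs. ESC libraries were the highest and ESC-PGCLC libraries the lowest, while pESCs overlapped PGCs and pESC-PGCLCs stood just under them. Its ESC-PGCLC values rested on 84 and 94 reads.

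Sox15 had the widest range of the 6 genes. It had 55.2 and 48.9 TPM in ESCs, 32.4 and 42.3 TPM in pESCs, 3.42 and 2.57 TPM in ESC-PGCLCs, 24.7 and 30.5 TPM in pESC-PGCLCs, and 14.2 and 13.1 TPM in PGCs. No neighbouring groups overlapped in the order ESC, pESC, pESC-PGCLC, PGC and ESC-PGCLC. The ESC-PGCLC values rested on 14 and 9 reads, with 95% exact Poisson intervals of 1.87 to 5.74 and 1.17 to 4.88 TPM, which cover counting error only. Both intervals end below the level of every other library.

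**Figure D1:**
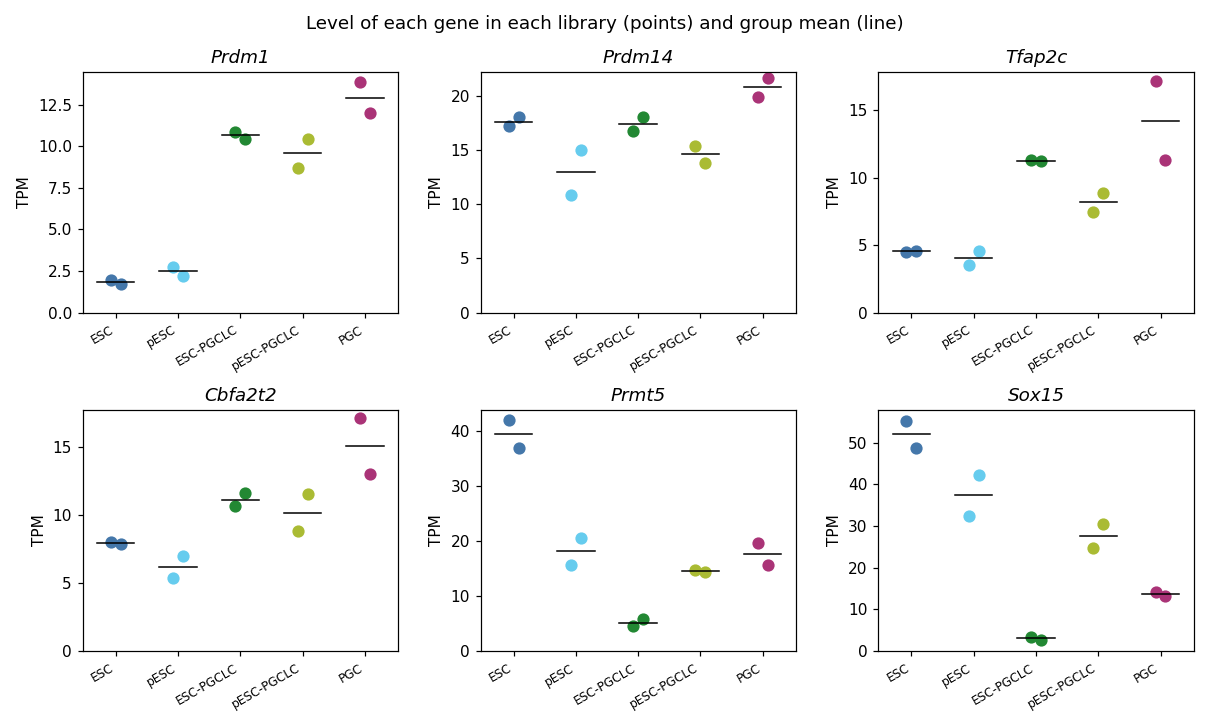
Level of each of the 6 genes in TPM (linear axis from 0) in each of the 10 libraries, by group. Points are libraries and lines are group means of 2; Prdm1, Tfap2c and Cbfa2t2 are higher in the germ cell groups, Prdm14 stays between 10.9 and 21.7 TPM, and Prmt5 and Sox15 are lowest in ESC-PGCLCs.

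Differences were tested with limma on log2(TPM + 1) over all 27259 genes, adjusted by the Benjamini-Hochberg method, and calls needed a change of at least 2-fold beside an adjusted p under 0.05. The smallest p that exact permutation of 2 libraries against 2 allows is 0.333, and the calls therefore rest on the variance that limma shares across genes. Fold changes on this scale understate the change of low genes.

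Differentiation of ESCs moved 4 of the 6 genes. Prdm1 rose by 2.04 on the log2 scale (SE 0.17, adjusted p = 3.9e-05) and Tfap2c by 1.14 (SE 0.21, adjusted p = 0.00277). Sox15 fell by 3.74 (SE 0.19, adjusted p = 5.25e-06) and Prmt5 fell by 2.72 (SE 0.19, adjusted p = 2.13e-05). The 4 calls stand against 29.8% of all genes called in ESC-PGCLCs against ESCs, where the median change of all genes was 0.05. Cbfa2t2 differed by 0.44 (adjusted p = 0.111) and Prdm14 by -0.02 (adjusted p = 0.961), and neither passed. The same 4 genes were called, in the same directions, in all 9 other processing settings and without any single library.

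Differentiation of pESCs moved fewer of them. Prdm1 rose by 1.60 (SE 0.17, adjusted p = 0.000169) and was the 1 gene called, against 27.6% of all genes, with a median of 0.22 over all genes. This call was lost with quantile normalization (0.95), with median centring (0.87) and with correction for GC content and length (0.53), and the direction held. Tfap2c differed by 0.86 (adjusted p = 0.0115) and Cbfa2t2 by 0.64 (adjusted p = 0.0329), both under 2-fold. The difference of Cbfa2t2 turned negative under the same 3 settings. Prdm14 differed by 0.18, Prmt5 by -0.29 and Sox15 by -0.42, and their adjusted p-values of 0.448, 0.270 and 0.115 did not pass. With median centring, however, Prmt5 (-1.02) and Sox15 (-1.15) were both called lower.

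The difference between these 2 differentiations was tested by itself, as the change in the parthenogenetic line minus that in the fertilized line. It was called for Sox15, at 3.32 (SE 0.27, adjusted p = 0.000379), and for Prmt5, at 2.43 (SE 0.27, adjusted p = 0.000947). These 2 calls compare with 19.1% of all genes. Both were called under all 9 other settings and without any single library, but the values varied. Their lowest values were 1.82 for Sox15 and 1.17 for Prmt5, the latter close to the 2-fold line. The other 4 genes had values between -0.44 and 0.20 and were not called. Prdm1 was called too with median centring (-1.18) and with quantile normalization, and Tfap2c with median centring (-1.02) and GC and length correction (-1.54).

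Between the differentiated groups, Sox15 was higher in pESC-PGCLCs than in ESC-PGCLCs by 2.84 (SE 0.19, adjusted p = 0.000132) and Prmt5 by 1.34 (SE 0.19, adjusted p = 0.00211). The 2 calls compare with 13.4% of all genes, at a median of 0.12 over all genes. The Prmt5 call was lost with median centring (0.93) and with correction for GC content and length (0.57), while that of Sox15 held in all 9 settings. Prdm1, Prdm14, Tfap2c and Cbfa2t2 differed by -0.15, -0.24, -0.42 and -0.13 and did not pass. Of these, Tfap2c was called with the GC and length correction, at -1.20.

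Between the stem cells, Prmt5 was lower in pESCs by a log2 value of -1.09 (SE 0.19, adjusted p = 0.0484). It was the 1 gene called, against 0.781% of all genes. The call was kept in 1 of the 9 other settings and lost in 8, and it was also lost without either ESC library and without pESC replicate 1 (highest adjusted p = 0.330), although the value stayed negative. Sox15 (-0.48), Prdm14 (-0.43), Cbfa2t2 (-0.32), Tfap2c (-0.14) and Prdm1 (0.29) did not pass. The sign for Prdm14, Tfap2c and Cbfa2t2 changed with another scaling or with the GC and length correction.

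Embryonic PGCs stood above ESC-PGCLCs for Sox15, by 1.88 (SE 0.19, adjusted p = 0.00121), and for Prmt5, by 1.60 (SE 0.19, adjusted p = 0.00188). The 2 calls compare with 13.8% of all genes, of which 86.4% were higher in PGCs, at a median of 0.27 over all genes. With quantile normalization 48.6% of called genes were higher. Both calls were lost when the 2 groups were fitted alone and with the GC and length correction, and that of Prmt5 also with median centring (0.99). Prdm1, Prdm14, Tfap2c and Cbfa2t2 had differences of 0.25, 0.24, 0.29 and 0.39, which did not pass and which turned negative with quantile normalization, median centring and the GC and length correction, so they carry no direction.

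Against pESC-PGCLCs, 0 of the 6 genes were called in PGCs by limma, beside 3.67% of all genes. At an unadjusted p under 0.05 there were 5, beside 29.2% of all genes, and with voom on recovered reads 1 was called, beside 7.22% of all genes. Sox15 was the nearest, at -0.96 (SE 0.19, adjusted p = 0.0320), just under 2-fold, and was called in 4 of the 9 other settings. Tfap2c differed by 0.71 (adjusted p = 0.0733), Cbfa2t2 by 0.52, Prdm14 by 0.48, Prdm1 by 0.40 and Prmt5 by 0.25. The PGC libraries lay between the 2 PGCLC groups for Sox15, and these comparisons share libraries.

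**Figure D2:**
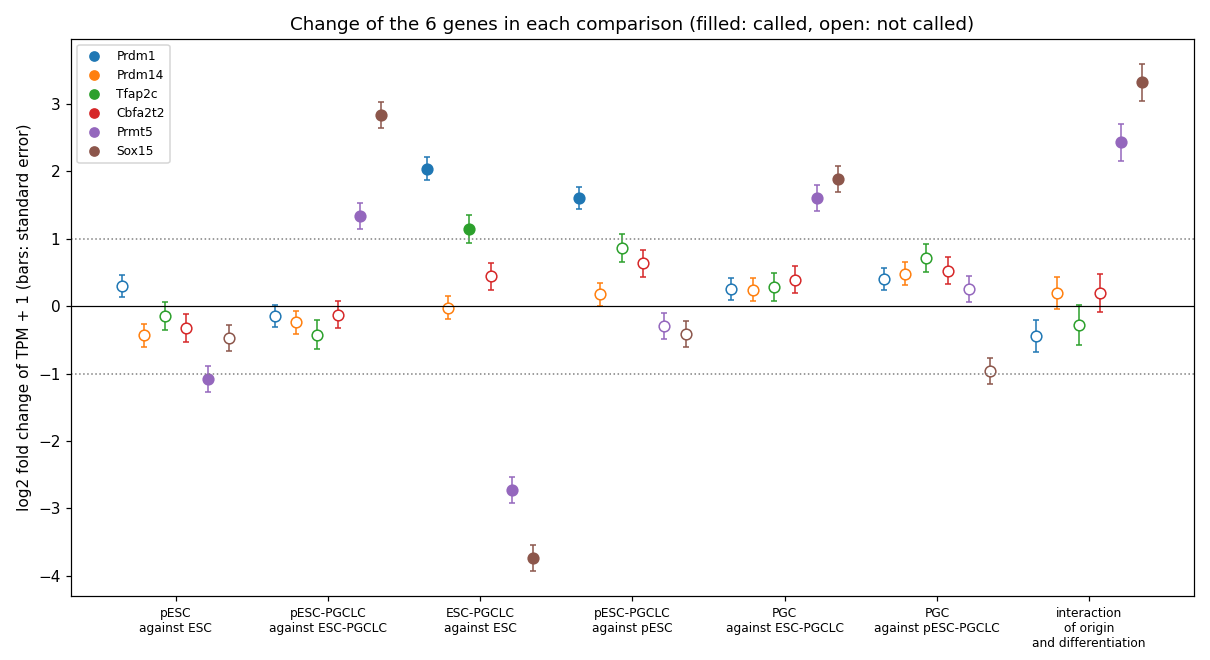
Log2 fold change of TPM + 1 (vertical axis, bars are standard errors) of the 6 genes in the 6 pairwise comparisons and the interaction, with dotted lines at 2-fold. Filled points are called and open points are not; Sox15 and Prmt5 are called in 4 and 5 of the 7, Prdm1 in 2, Tfap2c in 1, and Prdm14 and Cbfa2t2 in 0.

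**Figure D3:**
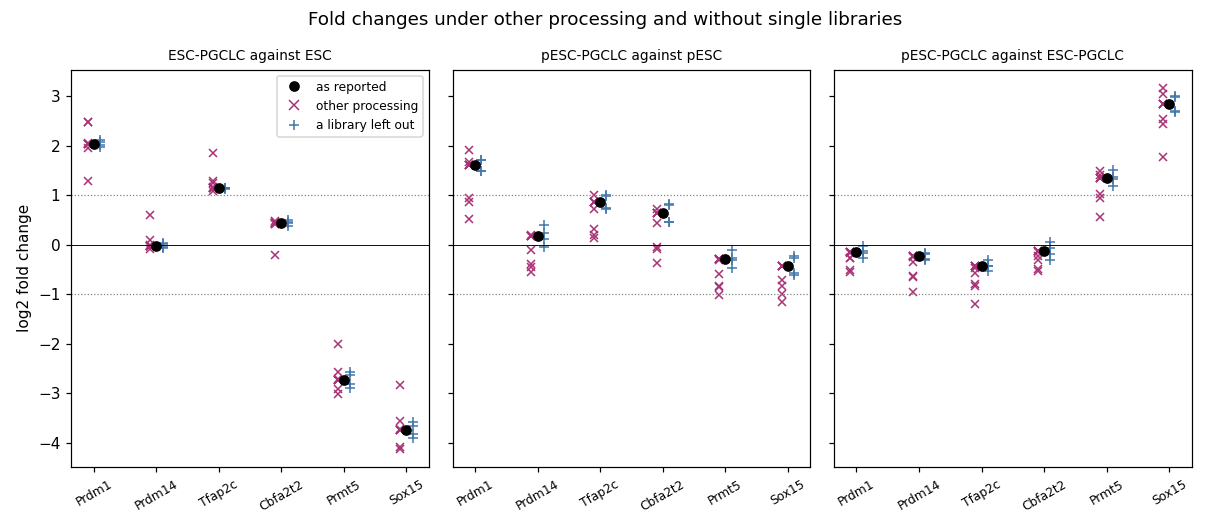
Log2 fold change of the 6 genes in 3 comparisons as reported (black), under other processing (crosses) and with single libraries left out (plus signs), with dotted lines at 2-fold. Sox15 and Prmt5 stay well below 0 in ESC-PGCLCs against ESCs, while Prdm14 and Cbfa2t2 lie on both sides of 0.

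Genes of high GC content were lower in ESC-PGCLCs as a whole. With genes split by GC content into 5 equal bins, the median log2 change in ESC-PGCLCs against ESCs went from 0.64 in the lowest bin to -0.37 in the highest, and the median interaction from 0.16 to 0.95. Sox15 has a GC content of 58.9%, in bin 5, and its longest transcript of 861 nt is in bin 2 of length, while Prmt5 has 52.6%, in bin 4. In bin 2 of length the median interaction was 0.96. The ESC-PGCLC libraries were also the shallowest of the 10, at 6779837 and 7697690 reads. After correction for GC content and length, added after the data were seen, Sox15 and Prmt5 remained called in ESC-PGCLCs against ESCs and in the interaction. Sox15 also remained called in pESC-PGCLCs against ESC-PGCLCs. In PGCs against ESC-PGCLCs, Sox15 (0.80) and Prmt5 (0.66) were no longer called. Prmt5 also lost its calls in pESC-PGCLCs against ESC-PGCLCs (0.57) and in pESCs against ESCs (-0.60). The part of GC content and depth in the levels of Sox15 and Prmt5 was not tested further.

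Ratios within a library do not depend on its total. SOX2 is the SOX factor of pluripotent cells and of PGCs. The Sox15 to Sox2 ratio was 1.69 and 1.09 in ESCs, 0.902 and 0.679 in pESCs, 0.0351 and 0.0232 in ESC-PGCLCs, 1.03 and 1.03 in pESC-PGCLCs, and 0.170 and 0.175 in PGCs. Sox2 itself had 97.3 and 110 TPM in ESC-PGCLCs and 23.9 and 29.7 TPM in pESC-PGCLCs, a difference of -1.92 (SE 0.27, adjusted p = 0.00188), opposite in sign to that of Sox15. WDR77 (MEP50) is the obligate partner of PRMT5 in the methylosome. The Prmt5 to Wdr77 ratio was 0.440 and 0.433 in ESCs, 0.479 and 0.456 in pESCs, 0.0907 and 0.110 in ESC-PGCLCs, 0.207 and 0.199 in pESC-PGCLCs, and 0.320 and 0.219 in PGCs. The 4 stem cell libraries lay within 0.433 to 0.479, and every germ cell library lay below them.

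**Figure D4:**
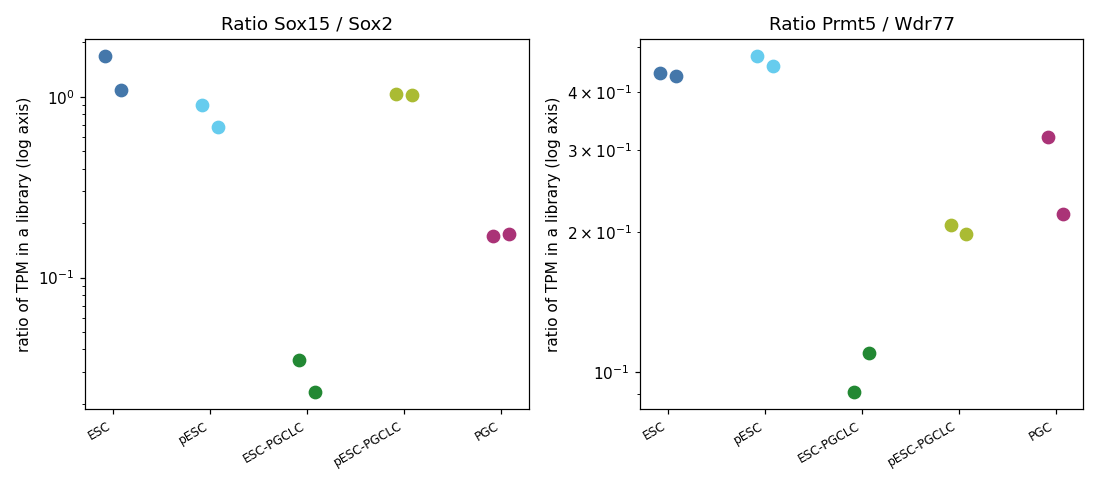
Ratio of TPM within each library (log axis) of Sox15 to Sox2 and of Prmt5 to Wdr77, each point 1 library. Both ratios are lowest in ESC-PGCLCs, at 0.0232 to 0.0351 and 0.0907 to 0.110.

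Of 11 genes of specified PGCs, 7 rose and 2 fell in ESC-PGCLCs against ESCs, with a median log2 change of 2.22 against 0.05 over all genes, and 7 rose and 1 fell in pESC-PGCLCs against pESCs, with a median of 2.15 against 0.22. These were 81.8% and 72.7% of the list, beside 29.8% and 27.6% of all genes. Dppa3 (Stella), a maternal factor of germ cells, rose by 3.95 and 2.59, and Elavl2 by 3.55 and 2.62. Nanos3, which keeps PGCs alive, rose by 3.64 in pESC-PGCLCs, from 4.56 and 4.49 TPM to 64.1 and 71.9 TPM. Ifitm3, an interferon-induced membrane protein used as an early PGC marker, fell by 2.60 in ESC-PGCLCs. Itgb3 encodes integrin β3 and Fut4 makes the SSEA1 epitope, on both of which the cells were sorted, so their rise is no finding. Without both, a count added after the data were seen, 5 of 9 genes rose and 2 fell in ESC-PGCLCs (median 1.56), and 5 rose and 1 fell in pESC-PGCLCs (median 1.43).

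Of 15 genes of BMP and WNT induction, 9 rose and 1 fell in ESC-PGCLCs (median 1.09) and 10 rose and 0 fell in pESC-PGCLCs (median 1.54). That is 66.7% of the list in each, beside 29.8% and 27.6% of all genes. The BMP target Id1 rose by 4.19 and 4.38 and the receptor Bmpr1a by 2.31 and 2.56. Id3, another BMP target, was lower in pESCs than ESCs by a log2 value of -2.33, at 17.2 and 21.4 TPM against 104 and 97.0 TPM, and rose by 3.29 in pESC-PGCLCs. The call in pESCs was lost without either ESC library, without pESC replicate 1 (adjusted p up to 0.0795) and with the compared groups alone (adjusted p = 0.163). T (Brachyury), the mesoderm factor downstream of WNT, had values between 0.492 and 1.93 TPM and was called in neither differentiation.

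Of 14 corepressors and methyltransferase partners, 3 rose and 3 fell in ESC-PGCLCs (median -0.25) and 4 rose and 1 fell in pESC-PGCLCs (median 0.74), or 42.9% and 35.7% of the list beside 29.8% and 27.6% of all genes. The deacetylase Hdac1 fell by 3.91 in ESC-PGCLCs and fell by 2.61 in pESC-PGCLCs. The PRMT5 adaptor Clns1a fell by 1.37 in ESC-PGCLCs, from 132 and 120 TPM to 49.9 and 46.3 TPM, and Coprs, which recruits PRMT5 to chromatin, rose by 1.92 in pESC-PGCLCs. Clns1a and Coprs were higher in pESC-PGCLCs than ESC-PGCLCs by 1.36 and 1.23, calls that were lost with quantile normalization, median centring, and GC and length correction. Wdr77 was lower in pESCs than ESCs, at a log2 value of -1.21 (adjusted p = 0.0322), and this call was lost without either ESC library, without pESC replicate 1 and in 5 of the 9 other settings. In the interaction, 6 of the 14 were called, all higher, at a median of 0.97 against 0.21 over all genes, or 42.9% of the list beside 19.1% of all genes. Hdac3, a deacetylase, was among them at 1.73, a call lost with median centring (0.98).

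Of the 15 epiblast and somatic genes that PRDM1 or PRDM14 are known to repress, 13 were tested, of which 5 rose and 3 fell in ESC-PGCLCs and 4 rose and 3 fell in pESC-PGCLCs, or 61.5% and 53.8% beside 29.8% and 27.6% of all genes. More of these genes rose than fell, and the list medians were 0.43 and 0.44, against 0.05 and 0.22 over all genes. The de novo methyltransferase Dnmt3b fell by 2.24 and by 1.24 on the log2 scale in the 2 differentiations and Uhrf1, which guides maintenance methylation, fell by 2.21 and by 1.70. Dnmt3l was listed at 0 in both ESC-PGCLC libraries. In pESC-PGCLCs, Fgfr2 rose from 0.165 and 0.257 TPM to 3.48 and 2.79 TPM. Ehmt1 rose there from 1.71 and 2.73 TPM to 8.70 and 10.1 TPM. Msx1, a homeobox gene of mesoderm, rose by 4.56 and 3.55, from at most 0.105 TPM to between 10.9 and 25.1 TPM, and gonadal and blood markers were also higher in these libraries.

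Among 39 tested paralogs of the 6 genes, 7 rose and 1 fell in ESC-PGCLCs and 12 rose and 0 fell in pESC-PGCLCs, with medians of 0.26 and 0.43. At 20.5% and 30.8% of the list, these shares were below and near the 29.8% and 27.6% of all genes. Runx1t1, the ETO-family relative of Cbfa2t2, rose by 4.06 and 3.99, from at most 0.222 TPM to between 14.4 and 20.6 TPM. Sox4 rose by 3.16 and 2.56. Of the arginine methyltransferases, Prmt2 and Prmt7 were higher in pESC-PGCLCs than ESC-PGCLCs by 1.61 and 1.43, the same direction as Prmt5 (both calls were lost with GC and length correction), and Prmt9 rose by 2.75 in pESC-PGCLCs.

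**Figure D5:**
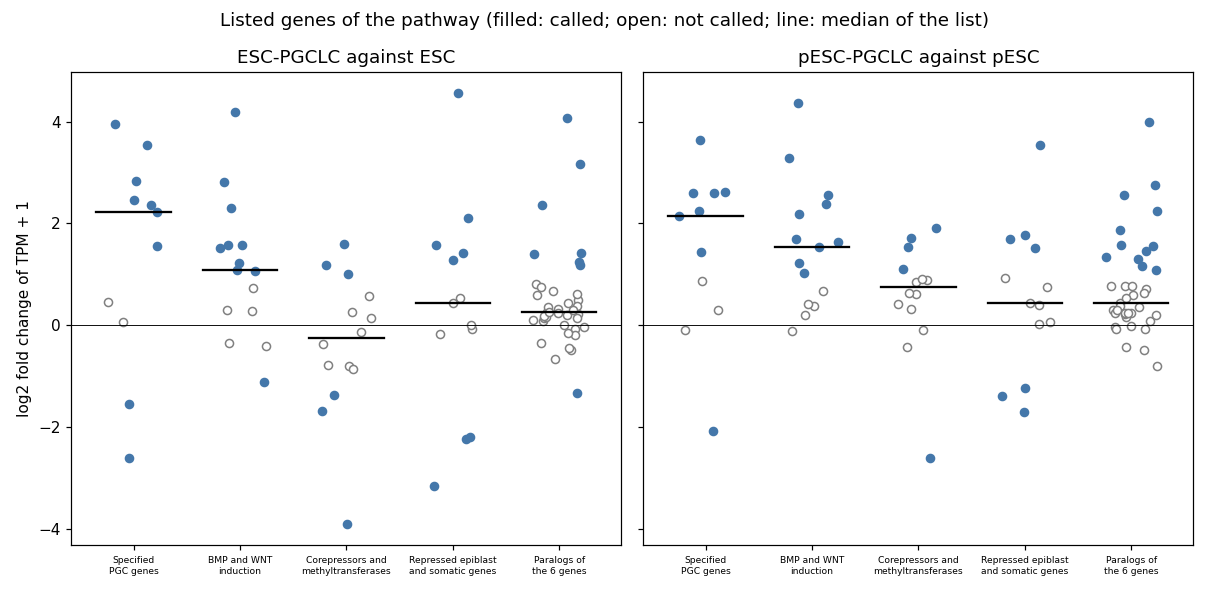
Log2 fold change of TPM + 1 of each tested gene of the 5 lists in ESC-PGCLCs against ESCs (left) and pESC-PGCLCs against pESCs (right). Filled points are called, open points are not and lines are list medians; the median of specified PGC genes, sort markers included, is 2.22 and 2.15, and Hdac1 is the lowest corepressor in both.

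Over the 10 libraries, and among 13852 genes of sufficient level and length, the genes most like each of the 6 in log2(TPM + 1) were named by Pearson r, as a description. Prdm1 was followed by Rps24-ps3 (0.996), Pilra (0.996) and Hdgfl3 (0.995), and Prdm14, whose level varied least, by Tesk2 (0.943), Tmbim1 (0.940) and Nasp (0.940). Tfap2c was followed by Pdcd6ip (0.992), Tsc1 (0.991) and Urb2 (0.991). Cbfa2t2 was followed by Hps5 (0.994), Akap8 (0.977) and Nelfa (0.976). Prmt5 was followed by Sigirr (0.994), Rita1 (0.990) and Scamp4 (0.988), and Sox15 by Qtrt1, Phb and Wdr83os (0.994, 0.994 and 0.993). The 10 points share groups of 2 and the depth of their libraries.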

How the data were processed

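RNA-seq of 10 libraries was analysed. The authors aligned reads to mm10 with Hisat2 and counted them per gene with Feature-counts, and the deposited table gives TPM. The labels' processing notes also name Bowtie2, RSEM, DESeq2 and R 3.4.2 without roles. The paper states Smart-seq2 on pools of sorted cells, whereas the labels state a column RNA kit and a standard library kit.

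TPM values were tested with limma 3.58.1 (R 4.3.3) on log2(TPM + 1), over 27259 genes of at least 0.1 TPM in at least 2 libraries, with 1 mean per group and a variance trend. Differences were called at a Benjamini-Hochberg adjusted p under 0.05 and at least 2-fold. The study's count model was replaced because the unit is TPM. Reads were recovered from TPM and exon lengths of GENCODE M21, and 96.7% to 97.4% of values below 30 reads were whole within 0.05 reads. They gave 6779837 to 18572894 reads a library and fed limma's voom, as an alternative. The method was also run on simulated data for pESC against ESC, with the same dispersion, taken from the replicates, for every gene. No result here rests on that run. Of the gene names, 24 had been turned into dates and were not matched. Promoter sequences are from RefSeq (GRCm38.p6).

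The 6 genes and the lists were chosen with earlier results of these data known. Besides the 6 genes, the rule named genes called in a comparison and among the 4 largest changes of their list, a few fixed markers, and for each of the 6 genes the 3 with the highest Pearson r. Results were recomputed without any filter, with a filter of 1 TPM, with a pseudocount of 0.1, and with the compared groups alone, a replicate block, quantile normalization, median centring, voom, each library left out, and, added after seeing the data, correction for GC content and length. Methylation data of the study were not used here.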

Additional observations from a re-analysis of the deposited data

Results flagged for a closer look

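The change on differentiation differed between the parthenogenetic and the fertilized line for 18 named genes. The test was the interaction of origin and differentiation in limma (adjusted p under 0.05, at least 2-fold, log2 scale, 2 libraries per group). Genes were named for being called, so their number is no rate to set beside the 19.1% of all genes tested. Of the whole lists, 33.3% of the 6 specification genes, 18.2% of specified PGC genes and 13.3% of induction genes were called. The share was 42.9% of corepressors and partners, 30.8% of listed targets of PRDM1 or PRDM14 and 15.4% of paralogs. The named specification genes were Sox15 (3.32) and Prmt5 (2.43). Of the PRMT5 partners and corepressors, the named genes were Clns1a (1.98), Coprs (1.79), Hdac3 (1.73) and Wdr77 (1.68). Of the arginine methyltransferases, they were Prmt2 (2.30), Prmt7 (2.24) and Prmt3 (1.66). Sox2 differed in the opposite sense to Sox15 (-2.22). Among genes of induction and of specified PGCs, Id3 (2.998), Alpl (1.85) and Eomes (1.31) had positive values and Dppa3 a negative one (-1.36). Among the listed targets of PRDM1 or PRDM14, Dnmt3l (1.77, a fitted value with both ESC-PGCLC libraries at 0) and Dnmt3b (1.00) had positive values. Fgfr1 (-1.19) and Msx1 (-1.01) had negative ones.

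The calls of Alpl, Dppa3, Eomes, Fgfr1, Msx1 and Dnmt3b were lost when single libraries were left out. Other processing also lost calls. Those of Wdr77 and Prmt3 were each lost in 2 settings (lowest values 0.94 and 0.91). Those of Coprs, Hdac3 and Dnmt3l were each lost in 1 (lowest values 0.94, 0.98 and 0.33). The median interaction over all genes was 0.21, and it ran from 0.16 to 0.95 between the lowest and the highest of 5 bins of GC content. The part of GC content and of depth in these values was not tested beyond the correction reported.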

How the results depend on the processing

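Replicate numbers are shared across groups, and no pairing of libraries was assumed. Over 9024 genes the correlations of deviations for the pairs compared ran from -0.0936 to 0.124. Among pairs not compared, the highest was 0.347, for pESC with PGC. The block result is a description. With the replicate block, pESC against ESC had 78 genes called, and 0 of the 6 specification genes, against 213 and 1 without it, and the block changed no other call of the 6.

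Of the 6 genes, 0 were called in pESC against ESC with a pseudocount of 0.1, no filter, the compared groups alone, the block, quantile normalization, median centring, voom, and GC and length correction. All genes called there were 402 (filter of 1 TPM), 132 (no filter), 0 (groups alone), 122 (quantile), 459 (voom) and 120 (GC and length). In pESC-PGCLC against ESC-PGCLC, 1 of the 6 was called with median centring. In ESC-PGCLC against ESC, voom called 12295 genes. In pESC-PGCLC against pESC, 0 of the 6 were called with quantile normalization and with GC and length correction, 2 with median centring (Prmt5 and Sox15, both lower), and voom called 11317 genes. In PGC against ESC-PGCLC, 0 of the 6 were called with the groups alone and with GC and length correction and 1 with median centring, and all genes called were 6140 (pseudocount 0.1), 0 (groups alone), 1906 (quantile) and 2191 (GC and length). In PGC against pESC-PGCLC, 1 of the 6 was called with a pseudocount of 0.1, quantile, centring and voom, and all genes called were 0 (groups alone) and 1956 (voom). In the interaction, 4 of the 6 were called with median centring, 3 with quantile normalization (Prdm1 added) and 3 with GC and length correction (Tfap2c added), against 2.

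Without single libraries, all genes called ranged from 30 to 953 in pESC against ESC, from 34 to 1966 in PGC against pESC-PGCLC and from 3305 to 5524 in the interaction. Of the 6 genes, 0 to 1 were called in pESC against ESC and 1 to 2 in pESC-PGCLC against pESC, where Tfap2c passed without pESC replicate 2. Of Cbfa2t2 in pESC-PGCLC against ESC-PGCLC the values ran from -0.30 to 0.0461. Of Prdm14 they ran from -0.0715 to 0.0297 in ESC-PGCLC against ESC, from -0.0414 to 0.39 in pESC-PGCLC against pESC and from -0.0204 to 0.41 in the interaction.

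Changes of direction were limited to differences that were not called. Some reversed values had an adjusted p under 0.05 in limma, all under 2-fold. With GC and length correction these included Prdm14 in ESC-PGCLC against ESC (adjusted p = 0.00727) and in the interaction (adjusted p = 0.00843). They also included Tfap2c in PGC against ESC-PGCLC (adjusted p = 0.0152) and, with median centring, Prdm14 in pESC-PGCLC against pESC (adjusted p = 0.00806). Under quantile normalization, median centring, and GC and length correction, in that order, PGC against ESC-PGCLC gave -0.36, -0.35 and -0.31 for Prdm1, -0.33, -0.36 and -0.56 for Prdm14, -0.31, -0.32 and -0.65 for Tfap2c, and -0.20, -0.21 and -0.26 for Cbfa2t2. In the same order, pESC-PGCLC against pESC gave -0.45, -0.56 and -0.39 for Prdm14 (voom -0.10) and -0.0410, -0.0925 and -0.37 for Cbfa2t2, the interaction gave -0.56, -0.55 and -0.98 for Prdm14 (voom -0.018) and -0.45, -0.55 and -0.16 for Cbfa2t2, and pESC against ESC gave 0.0922, 0.19 and 0.34 for Tfap2c. GC and length correction gave 0.0339 for Prdm14 in pESC against ESC, 0.59 for Prdm14 and -0.22 for Cbfa2t2 in ESC-PGCLC against ESC, and -0.0379 for Prdm1 in PGC against pESC-PGCLC. Quantile normalization gave 0.10 for Prdm14 in ESC-PGCLC against ESC, and median centring 0.00965 for Cbfa2t2 in pESC against ESC. The cause was not tested.

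Median centring moved the median of all genes in pESC-PGCLC against pESC from 0.22 to -0.51, and the share of called genes that were higher from 75.4% to 31.3%. The 2 libraries per group and 9 to 14 reads for Sox15 in ESC-PGCLCs limit the precision.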
